A study of Homo sapiens with 8 samples.

Results

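Input RNA of HEK293T cells deprived of glucose was compared with input RNA of the same cells in complete medium. HEK293T cells descend from human embryonic kidney and express the large T antigen of SV40. The glucose-free group (2 libraries) had spent 48 h in DMEM lacking glucose with 10% dialyzed fetal bovine serum, and the complete group (2 libraries) was kept in DMEM with 10% undialyzed fetal bovine serum. Both groups expressed eIF3d-TEV, a translation factor subunit with a cleavage site for TEV protease, and both were crosslinked with ultraviolet light of 254 nm, since the inputs served a pull-down of eIF3d with anti-HA beads. Libraries were made from RNA containing poly(A). The serum differed along with the sugar, so the effects of lacking glucose and of dialyzed serum cannot be told apart. The members described here are the 5870 genes, of 57978 listed in both deposited tables, with a mean of at least 1 RPKM (reads scaled to exon length and library reads) over the 4 input libraries. Nuclear protein-coding genes made up 4682 of them. TAF1C lay just inside that limit at 1.0001 RPKM and RIPK1 just outside it at 0.99997 RPKM.

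Glucose feeds glycolysis, the pentose phosphate pathway and the sugar donors for protein glycosylation. When it is missing, cells depend more on respiration of glutamine and fatty acids, the kinase AMPK is activated, and the kinase complex mTORC1, which promotes translation and growth, is restrained. Too few sugar donors can leave proteins misfolded in the endoplasmic reticulum (ER), which turns on genes of the unfolded protein response. MondoA, a transcription factor that reads glucose phosphates, drives TXNIP and ARRDC4 while sugar is plentiful. These statements are background and not results of these data.

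The input libraries differed in ways that touch the results below. They held 33996875 and 43400905 recovered reads in the glucose-free inputs, against 31708998 and 19490714 in the complete inputs. Across the 5870 genes, log2 values of the glucose-free replicates correlated with r = 0.992 and those of the complete replicates with r = 0.950. Mitochondrial rRNA took 49.4% and 50.7% of reads in the glucose-free inputs, against 39.4% and 26.8% in the complete inputs, and nuclear protein-coding genes took 27.4% and 28.98%, against 28.4% and 29.1%. Another 15.9% and 13.2% of reads in the glucose-free inputs, against 17.4% and 36.3% in the complete inputs, fell on the top 4 noncoding genes of chromosome 21, where complete replicate 2 stood apart from the other inputs. Genes annotated as rRNA took 1.73% and 1.43%, against 0.0583% and 0.0677%. Of 23 marker genes of blood, liver, endothelium, fibroblasts, squamous epithelium, muscle and fat, 2 reached 1 RPKM in each library. HBA1 was the highest at 2.08 and 2.10 RPKM in the glucose-free inputs, against 10.0 and 5.41 RPKM in the complete inputs. The marker sums were 4.81 and 4.65 RPKM in the glucose-free inputs, against 20.2 and 12.6 RPKM in the complete inputs. HBB, ALB, COL1A2, CDH5 and ADIPOQ were listed at 0 in all 4 inputs. The line's own genes VIM (11.4 and 11.8 RPKM without glucose, 7.43 and 6.81 RPKM in complete medium) and KRT18 (9.84 and 8.48 RPKM without glucose, 7.78 and 10.3 RPKM in complete medium) were present, while PAX2 and LHX1 reached at most 0.337 RPKM in any input.

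Of the 5870 genes, 1033 were higher and 1116 lower without glucose (limma, Benjamini-Hochberg adjusted p under 0.05). Calls in either direction came to 36.6% of all genes tested, with 17.6% higher and 19% lower. Of all calls, 48.1% were higher. Among the 4682 nuclear protein-coding genes 556 were higher and 967 lower, so 36.5% of their calls were higher. Lists of nuclear protein-coding genes below are to be read against these counts, and other lists against the shares over all genes. The median log2 change was -0.05 over all genes and -0.13 over nuclear protein-coding genes. No label states that replicates are independent cultures. The p-values therefore speak of the spread from library to library, which may be technical. They assume 1 common spread per gene over the 4 groups of the fit, although the input pairs differed in spread. The median absolute log2 difference was 0.080 between the glucose-free inputs and 0.44 between the complete inputs. In bulk RNA, a change in the share of cells expressing a gene and a change in RNA per cell cannot be told apart. A total of 335 members averaged under 1 RPKM only in the complete inputs, and 284 of these were called higher. Another 1232 averaged under 1 RPKM only in the glucose-free inputs, and 639 of these were called lower. Such members passed the limit through the group in which they were high, which favours a call. Among those high without glucose and named below are UQCRB, ESD, PSMA4, EIF3E, NDUFC2, DLD, DERL3, PRIM1, RNU5A-1, RNY4 and SNORD46. Among those high in complete medium are HIST1H2AE, MKI67, SLC2A1, SLC2A6, HK2, MLXIP, SLC7A1, RPTOR, CTSA, ATG9A, KMT2D, EP300 and NORAD.

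Leaving out a library changed the number of calls. Without glucose-free replicate 1 there were 497 higher and 203 lower genes, and without glucose-free replicate 2 there were 507 and 198. Without complete replicate 1 there were 1516 higher and 1410 lower genes, and without complete replicate 2 there were 925 and 1103. Single genes given below with their RPKM in each library and called higher or lower stayed past the threshold whichever of the 8 libraries in the fit was left out, unless the text says otherwise. With RPKM as deposited, without scaling the libraries to one median, the median change of all genes was -0.38 and the calls were 574 higher (29.7% of calls) and 1358 lower. Scaling to the upper quartile gave a median of -0.22 with 802 higher (36.1% of calls) and 1419 lower.

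The 12 largest rises among nuclear protein-coding genes included subunits of the ribosome, of respiratory complexes, of the proteasome and of the ER translocon. RPL39 (ENSG00000198918), a very small protein of the large ribosomal subunit, was at 2106 and 2159 RPKM in the glucose-free inputs, against 9.10 and 6.59 RPKM in the complete inputs. Both complete libraries were low and both glucose-free libraries high, and the log2 change was 8.36 ± 0.69 (SE; limma adjusted p = 9.61e-05). The gene lies at chrX:119786504-119791643 (GRCh38) and shares its coding letters with processed copies elsewhere. The copy RPL39P3 was at 4996 and 5328 RPKM without glucose, against 11.3 and 4.93 RPKM in complete medium, and RPL39P38 was at 670.0 and 639 RPKM, against 1.65 and 0.335 RPKM. The reads of these genes may have been split among them, so the level of any single copy is uncertain, while the parent and both copies moved the same way.

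COX7B (chrX:77899438-77907373), a small subunit of cytochrome c oxidase, was at 77.5 and 84.1 RPKM without glucose, against 3.09 and 0.577 RPKM in complete medium. The groups were far apart, the log2 change being 5.31 ± 0.61 (SE; limma adjusted p = 0.000512), although the complete replicates differed among themselves several-fold. UQCRB, a subunit of complex III, was at 15.6 and 20.1 RPKM without glucose, against 1.15 and 0.544 RPKM, a log2 change of 3.65 ± 0.29. ATP5PO, which links the stator of ATP synthase to its catalytic head, was at 16.4 and 17.7 RPKM without glucose, against 3.04 and 0.892 RPKM, a log2 change of 3.02 ± 0.48. All of these code for parts of the respiratory chain or ATP synthase in the inner mitochondrial membrane.

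TPT1 (chr13:45333471-45341370), the translationally controlled tumour protein, was at 44.1 and 49.2 RPKM without glucose, against 5.92 and 3.95 RPKM in complete medium (log2 change 3.43 ± 0.31 SE). ESD, an esterase that clears S-formylglutathione, was at 12.6 and 14.5 RPKM without glucose, against 0.482 and 0.347 RPKM (3.63 ± 0.20). PSMA4, a subunit of the 20S proteasome ring, was at 10.1 and 10.8 RPKM without glucose, against 0.541 and 0.689 RPKM (3.13 ± 0.27). In each case the lower of the glucose-free libraries was several-fold above the higher of the complete ones. EIF3E, a core subunit of initiation factor eIF3, was at 7.13 and 8.66 RPKM without glucose, against 0.347 and 0.171 RPKM (3.05 ± 0.30). RPS13, SEC61G (a subunit of the ER translocon), RBIS and RSL24D1 (ribosome assembly proteins) completed the 12 largest rises, with log2 changes of 2.96, 2.91, 3.35 and 2.88.

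The 12 largest falls included 5 replication-dependent histone genes and several genes for large nuclear proteins. HIST1H4C (ENSG00000197061, chr6:26103876-26104310), a histone H4 gene, was at 66.7 and 65.9 RPKM without glucose, against 1428 and 2176 RPKM in complete medium, and its log2 change was -4.25 ± 0.41 (SE; limma adjusted p = 0.000204). HIST1H1D, a linker histone, was at 3.80 and 3.01 RPKM without glucose, against 32.2 and 64.9 RPKM (-3.00 ± 0.30). HIST1H2AB was at 2.32 and 2.05 RPKM without glucose, against 35.6 and 56.0 RPKM (-3.45 ± 0.44). The glucose-free libraries lay close together and well under both complete libraries for each of these histones.

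POLR2A (chr17:7484366-7514616), the largest subunit of RNA polymerase II, was at 1.48 and 1.53 RPKM without glucose, against 11.1 and 30.5 RPKM in complete medium (log2 change -2.59 ± 0.34; limma adjusted p = 0.00104). HCFC1, a chromatin co-regulator, was at 1.503 and 1.46 RPKM without glucose, against 9.30 and 33.8 RPKM (-2.56 ± 0.39). SRRM2, a large spliceosome protein, was at 2.30 and 2.46 RPKM without glucose, against 12.5 and 36.9 RPKM (-2.35 ± 0.35). For these long transcripts the complete replicates lay apart, with replicate 2 the higher, and both lay above both glucose-free libraries. MKI67, a marker of proliferating cells that coats mitotic chromosomes, was at 0.710 and 0.658 RPKM without glucose, against 6.65 and 12.7 RPKM (-2.29 ± 0.37). FNDC10, HIST1H2AE, HIST1H2BF, ZNF703 (a transcriptional repressor) and SELENON (an ER selenoprotein) made up the rest, with log2 changes of -2.57, -2.46, -2.43, -2.37 and -2.33.

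**Figure D1:**
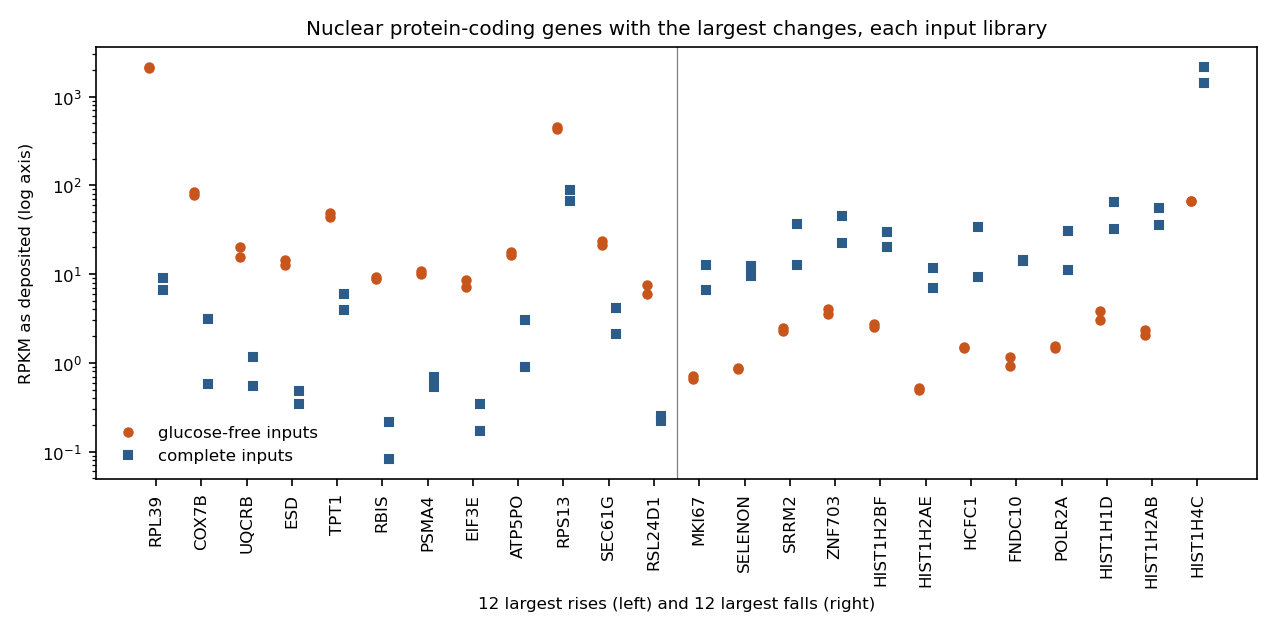
RPKM as deposited (log axis) in each of the 2 glucose-free inputs (circles) and 2 complete inputs (squares) for the 12 nuclear protein-coding genes with the largest rises and the 12 with the largest falls. No gene has overlapping groups, since that was part of how they were chosen; RPL39 is at 2106 and 2159 RPKM against 9.10 and 6.59 RPKM, and HIST1H4C at 66.7 and 65.9 RPKM against 1428 and 2176 RPKM.

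Ribosomal protein mRNAs were higher where they passed the test. Of 79 cytosolic ribosomal protein genes, 20 were higher without glucose and 0 lower, and their median log2 change was 0.86. RPS13 (component of the small subunit) was at 427 and 455 RPKM in the glucose-free inputs, against 88.8 and 66.8 RPKM in the complete inputs. RPS27A, which codes for a fusion of ubiquitin and a small subunit protein, was at 625 and 653 RPKM, against 217 and 92.0 RPKM (log2 change 2.63 ± 0.53), but its call was lost without either glucose-free library (limma adjusted p up to 0.0528). RPS13, RPS27A and other genes of this family have many processed copies, so their reads are uncertain. With the 4 inputs fitted alone, 6 were higher and 0 lower. The list had 2 higher members without either glucose-free replicate, 60 without complete replicate 1, and 13 higher and 4 lower without complete replicate 2. The median was 0.39 with RPKM as deposited and 0.09 after quantile normalization. With the trends on exon length and GC content removed from each library, 24 were higher and 2 lower.

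Many of these mRNAs begin with a terminal oligopyrimidine (TOP) run, a cytidine at the cap followed by pyrimidines, through which mTORC1 and the protein LARP1 regulate their translation and stability. The first 24 bases from the RefSeq transcript start (GRCh38.p14) are shown for members of different kinds because they carry this run, with the run in capitals. NPM1, a nucleolar chaperone, had a log2 change of 1.91 and lost its call in 4 of the 8 fits with a library left out (limma adjusted p up to 0.121). RPL39 starts at chrX:119791607-119791630 (minus strand), RPS13 at chr11:17077644-17077667 (minus), TPT1 at chr13:45341160-45341183 (minus), NPM1 at chr5:171387849-171387872 (plus), SNHG5 at chr6:85678710-85678733 (minus) and ZFAS1 at chr20:49278642-49278665 (plus).
RPL39: CCCTCCTCTTCCTTTCTCCgccat
RPS13: CCTTTCgttgcctgatcgccgcca
TPT1: CTTTTCCgcccgctcccccctccc
NPM1: CTTTCCCTggtgtgattccgtcct
SNHG5: CTTTTacgtcggccttcgcgagcg
ZFAS1: CTTTCgcgtctgcggtgcccggag

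A run of C and at least 4 further pyrimidines, read on the transcript strand at the first base only, stood at 4.04% of 27305 RefSeq starts. Among nuclear protein-coding members, 295 starts had it, of which 60 genes (20.3%) were higher and 29 (9.83%) lower, with a median log2 change of 0.26. Of 3649 without it, 407 (11.2%) were higher and 774 (21.2%) lower, with a median of -0.15. Leaving out the ribosomal proteins, 252 genes with the run included 47 higher and 29 lower, with a median of 0.18. Ribosomal protein genes had a median of 1.09 over the 43 with the run at their RefSeq start and 0.78 over the 20 without it, a difference that was not tested. A match to these letters is a description of the annotated start, not of the start used in these cells.

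Nuclear genes for respiratory complexes III and IV and ATP synthase had 13 of 40 members higher and 1 lower without glucose, with a median log2 change of 0.76. The median stayed above 0 under every scaling tried, at 0.20 after quantile normalization and 0.30 as deposited. Besides COX7B, UQCRB and ATP5PO, ATP5MPL (a small membrane subunit of ATP synthase) was at 22.4 and 24.5 RPKM without glucose, against 5.35 and 2.27 RPKM (log2 change 2.79 ± 0.44). ATP5MC1, one of the genes for the rotor ring of ATP synthase, was the lower member, at -1.05. The list had 7 higher and 0 lower members without either glucose-free replicate, 25 and 1 without complete replicate 1, and 11 and 5 without complete replicate 2.

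Of 31 nuclear subunits of complex I, which takes electrons from NADH, 3 were higher and 2 lower, with a median of 0.18 that turned to -0.18 as deposited, -0.30 after quantile normalization and -0.01 with upper quartile scaling. NDUFC2 was at 2.92 and 3.46 RPKM without glucose, against 0.832 and 0.793 RPKM (log2 change 1.48 ± 0.18). NDUFA3 moved the other way, at 39.7 and 39.1 RPKM without glucose, against 164 and 142 RPKM (-1.47 ± 0.31), a call lost without either glucose-free library (limma adjusted p up to 0.0750). Leaving out either glucose-free replicate, 1 member was higher and 0 lower, without complete replicate 1 there were 11 and 2, and without complete replicate 2 there were 3 and 7.

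The 13 mRNAs encoded by mitochondrial DNA had a median log2 change of -1.37, but only MT-ND1 passed the test. MT-ND1, a complex I subunit, was at 1245 and 1433 RPKM without glucose, against 17160 and 8958 RPKM in complete medium (log2 change -2.75 ± 0.90; limma adjusted p = 0.0440), and the call was lost in 6 of the 8 fits with a library left out, among them all 4 that left out an input (adjusted p up to 0.182). MT-CO3, a subunit of cytochrome c oxidase, was at 3858 and 4265 RPKM without glucose, against 37387 and 19965 RPKM (-2.29 ± 0.82; limma adjusted p = 0.0591). MT-CO2 overlapped between the groups, at 8685 and 10175 RPKM without glucose, against 21121 and 6497 RPKM. MT-ND3 was at 1780.1 and 2120.4 RPKM without glucose, against 1515 and 569 RPKM. Mitochondrial mRNA as a whole took 1.90% and 2.20% of reads in the glucose-free inputs, against 10.4% and 4.69% in the complete inputs, so the groups were separate but the complete replicates differed more than 2-fold.

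Mitochondrial ribosomal proteins, which build the ribosome that translates those 13 mRNAs, had 21 of 70 members higher and 2 lower, with a median of 0.33 (-0.08 with RPKM as deposited). MRPS33 was at 7.06 and 8.11 RPKM without glucose, against 2.95 and 1.80 RPKM (log2 change 1.71 ± 0.29), and MRPL39 at 7.83 and 8.24 RPKM, against 3.05 and 4.75 RPKM (1.30 ± 0.23). Without glucose-free replicate 1 the list had 5 higher members, and without replicate 2 it had 3.

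The tricarboxylic acid (TCA) cycle list, which includes entry of pyruvate into mitochondria, had 5 of 21 members higher and 1 lower, with a median of 0.37 (-0.06 as deposited). FH, which turns fumarate into malate, was at 7.22 and 7.10 RPKM without glucose, against 2.39 and 3.59 RPKM (1.43 ± 0.22). MPC2, a subunit of the carrier that brings pyruvate into mitochondria, was at 3.07 and 3.33 RPKM, against 1.38 and 0.905 RPKM (1.26 ± 0.20). DLD, the dehydrogenase shared by the pyruvate and oxoglutarate complexes, was at 1.62 and 2.10 RPKM, against 0.470 and 0.784 RPKM (1.06 ± 0.17). The list had 4 higher members without glucose-free replicate 1 and 3 without replicate 2, with 0 lower in each, 5 higher and 5 lower without complete replicate 1, and 8 and 1 without complete replicate 2. OGDH, the first enzyme of the oxoglutarate complex, was the lower member at -0.97. Of 12 tested genes for glutamine and glutamate entry, 0 were higher and 2 lower, and neither lower call (SLC25A10 and SLC38A1) was kept without either glucose-free library (limma adjusted p up to 0.17).

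Of 5 tested genes for glucose uptake and hexokinases, 0 were higher and 2 lower, with a median log2 change of -0.57 (-0.14 with length and GC trends removed). SLC2A6, a glucose transporter of the lysosome, was at 0.557 and 0.462 RPKM without glucose, against 2.09 and 2.36 RPKM in complete medium (-0.86 ± 0.19; limma adjusted p = 0.00971), and its call was lost without either glucose-free library (adjusted p up to 0.0788) and when values were centred after the log. HK1, the widely expressed hexokinase, was at 1.92 and 1.95 RPKM without glucose, against 3.36 and 8.85 RPKM in complete medium (log2 change -0.80 ± 0.26; limma adjusted p = 0.0433), and this call was lost in 5 of the 8 fits with a library left out (adjusted p up to 0.20) and with length and GC trends removed (-0.14). SLC2A1, the main glucose transporter of most cell lines, was at 0.666 and 0.673 RPKM without glucose, against 1.40 and 2.16 RPKM (-0.48 ± 0.21; limma adjusted p = 0.112). HK2 was at 0.689 and 0.722 RPKM, against 1.09 and 3.25 RPKM (-0.53 ± 0.23; limma adjusted p = 0.106). For SLC2A1 and HK2 the groups did not overlap, although the test was not passed. The list had 0 calls without either glucose-free replicate and 3 lower members without complete replicate 1.

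Of 15 tested glycolysis genes past glucose phosphorylation, 1 was higher and 3 lower, with a median of -0.06 (-0.47 as deposited, -0.60 after quantile normalization and 0.24 with length and GC trends removed). ALDOA, which splits fructose bisphosphate, was at 1.40 and 1.55 RPKM without glucose, against 8.76 and 14.988 RPKM in complete medium (log2 change -1.98 ± 0.18; limma adjusted p = 0.000148). LDHB, the lactate dehydrogenase subunit of oxidative tissues, was at 64.9 and 70.8 RPKM without glucose, against 26.2 and 30.0 RPKM (1.69 ± 0.45), a call lost without either glucose-free library or complete replicate 2 (limma adjusted p up to 0.12). GAPDH and PGK1 had log2 changes of 0.05 and -0.04, and neither passed the test. The list had 0 higher and 1 lower members without either glucose-free replicate, and 1 and 8 without complete replicate 1.

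Glycogen genes included GYS1, the glycogen synthase of non-liver tissues, at 1.36 and 1.30 RPKM without glucose, against 4.89 and 13.0 RPKM in complete medium (log2 change -1.61 ± 0.27). GYG1, the primer protein on which glycogen is built, was higher, at 2.60 and 2.83 RPKM, against 0.710 and 1.52 RPKM (1.14 ± 0.17). In all, 1 of 8 tested genes for gluconeogenesis and glycogen was higher and 4 were lower. The lower count was 1 without either glucose-free replicate and 2 with length and GC trends removed. All 9 tested genes of the pentose phosphate pathway missed the threshold, with a median of 0.22 that turned to -0.23 as deposited and -0.02 both after quantile normalization and with upper quartile scaling.

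Glucose-responsive genes that lay below 1 RPKM are not among the members and are given as values only. TXNIP, an inhibitor of glucose uptake and of thioredoxin, had 2 and 4 reads (0.0162 and 0.0254 RPKM) in the glucose-free inputs, against 95 and 36 reads (0.826 and 0.510 RPKM) in the complete inputs. ARRDC4, its relative, had 7 and 12 reads without glucose, against 63 and 34 reads. Both were low in the deeper glucose-free libraries and higher in the complete ones. With no filter on low values neither passed the test (limma adjusted p = 0.329 for TXNIP and 0.145 for ARRDC4). SLC2A3, a high-affinity glucose transporter, had 3 and 3 reads, against 36 and 12 reads. The MondoA gene itself, MLXIP, was a member at 0.286 and 0.268 RPKM without glucose, against 1.02 and 2.58 RPKM (log2 change -0.86 ± 0.25). Its call was lost in 5 of the 8 fits with a library left out (limma adjusted p up to 0.17), and its change was 0.08 with length and GC trends removed.

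Of 27 tested ER chaperones and secretory genes, 12 were higher and 3 lower, with a median of 0.63 that stayed above 0 under every scaling tried (0.22 as deposited). HSPA5 (BiP), the main ER chaperone and a classical glucose-regulated protein, was at 16.9 and 13.9 RPKM without glucose, against 9.91 and 6.81 RPKM in complete medium. The groups did not overlap (log2 change 1.24 ± 0.35; limma adjusted p = 0.0257), but the call was lost in 5 of the 8 fits with a library left out (adjusted p up to 0.168), as deposited, after quantile normalization, with the inputs alone and with length and GC trends removed. HSP90B1 (GRP94), its partner, was at 13.6 and 13.1 RPKM, against 7.15 and 3.85 RPKM (1.58 ± 0.36), a call lost without either glucose-free library (limma adjusted p up to 0.0844).

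DERL3, which helps draw misfolded proteins out of the ER, was at 2.71 and 2.69 RPKM without glucose, against 0.457 and 0.311 RPKM in complete medium (log2 change 1.64 ± 0.16; limma adjusted p = 0.000209). SEC61G, a translocon subunit, was at 21.1 and 23.8 RPKM without glucose, against 4.19 and 2.09 RPKM (2.91 ± 0.33). SDF2L1, a co-chaperone of HSPA5, was at 96.8 and 92.6 RPKM, against 37.9 and 23.1 RPKM (2.09 ± 0.45), and its call was lost without either glucose-free library (limma adjusted p up to 0.0676). PDIA3, CALR, PDIA6, CRELD2, SEC61B, SSR3 and SSR4 were also called higher, with log2 changes of 0.74 to 1.36, while SYVN1, SEC61A1 and ATF6B were called lower. Without either glucose-free replicate the list had 2 higher and 0 lower members, and without complete replicate 2 it had 7 and 3. In the related list for the hexosamine pathway and N-glycan assembly, 4 of 20 were higher and 3 lower, with 1 lower without glucose-free replicate 1 and 0 without replicate 2. OSTC, a subunit of the enzyme that attaches glycans to proteins, was at 22.1 and 24.5 RPKM without glucose, against 6.22 and 4.12 RPKM (2.40 ± 0.30).

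The integrated stress response, which acts through ATF4 when amino acids or ER folding fail, had 1 of 19 tested members higher and 3 lower, and 0 lower without either glucose-free replicate. ATF4 was at 62.0 and 63.1 RPKM without glucose, against 114 and 89.2 RPKM in complete medium, and did not pass the test after scaling (log2 change -0.23 ± 0.40; limma adjusted p = 0.676). DDIT3 (CHOP) was at 15.9 and 15.7 RPKM, against 14.7 and 2.32 RPKM, so complete replicate 1 lay near the glucose-free libraries (1.58 ± 0.74; limma adjusted p = 0.126). ATF3, an early stress transcription factor, was at 3.95 and 4.59 RPKM, against 1.49 and 1.51 RPKM (1.39 ± 0.27), and its call was lost without glucose-free replicate 2 (limma adjusted p = 0.0661). The amino acid transporters SLC7A5 (2.76 and 2.53 RPKM without glucose, 17.5 and 18.4 RPKM in complete medium) and SLC7A1 (0.608 and 0.740 RPKM without glucose, 7.34 and 5.05 RPKM in complete medium) were lower, with log2 changes of -1.99 and -1.80. Both of these calls were lost without either glucose-free library (limma adjusted p up to 0.0779 and 0.0667). ASNS, an ATF4 target, stayed under 1 RPKM with 12 and 14 reads, against 38 and 14 reads.

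Several genes for lipid synthesis were lower without glucose. SCD, the desaturase that makes oleate, was at 3.61 and 3.48 RPKM without glucose, against 20.3 and 35.1 RPKM in complete medium (log2 change -2.20 ± 0.26; limma adjusted p = 0.000547). INSIG1, which holds the cholesterol sensor complex in the ER, was at 1.43 and 1.33 RPKM, against 4.48 and 7.28 RPKM (-1.16 ± 0.18). Both of these calls also held with length and GC trends removed. FASN (fatty acid synthase, 3.74 and 3.74 RPKM without glucose, 12.8 and 32.9 RPKM in complete medium) and ACLY (the cytosolic source of acetyl-CoA, 3.44 and 3.72 RPKM without glucose, 9.99 and 33.4 RPKM in complete medium) had log2 changes of -1.78 and -1.68, and their calls were lost without either glucose-free library (limma adjusted p up to 0.0688 and 0.0922).

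Over the whole cholesterol list, 2 of 17 tested members were higher and 6 lower, with a median of -0.60. The higher members were ACAT2 and PMVK at 1.04 and 0.95. Over fatty acid synthesis and oxidation, 5 of 21 were higher and 6 lower, with a median of 0.12 that turned to -0.32 as deposited. The members called lower (SCD, FASN, ACLY, FADS1, FADS2 and ELOVL1) act in synthesis, elongation or desaturation. Those called higher (ETFA, ETFB, ECI2, ACADM and ACAA1) act in oxidation. Other oxidation genes did not pass, such as HADHA (-0.42), ACADVL (-0.13), ECHS1 (0.13) and ACADS (0.56), nor did the elongase ELOVL5 (0.12). A difference between synthesis and oxidation genes was not tested. Without either glucose-free replicate the cholesterol list had 0 higher and 2 lower members. The fatty acid list then had 1 lower member, with 1 higher without glucose-free replicate 1 and 2 higher without replicate 2.

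In the AMPK and mTOR list 0 of 19 were higher and 5 lower, with a median of -0.46. RPTOR, the scaffold of mTORC1, was at 0.338 and 0.260 RPKM without glucose, against 1.28 and 3.78 RPKM in complete medium (log2 change -1.11 ± 0.24). LARP1, the repressor of TOP mRNAs, was at 2.01 and 1.98 RPKM, against 7.52 and 14.7 RPKM (-1.58 ± 0.28). Calls of both genes were lost without either glucose-free library (limma adjusted p up to 0.0921 for RPTOR and 0.0539 for LARP1). Without either of these libraries the list had 0 higher and 0 lower members. With length and GC trends removed, it had 2 higher and 0 lower members, its median turned to 0.22, and RPTOR did not pass (-0.26).

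In the lysosome and autophagy list 2 of 26 were higher and 9 lower, with a median of -0.51. With length and GC trends removed, 4 were higher and 5 lower, and the median was -0.14. CTSA, the lysosomal protective protein, was at 0.583 and 0.582 RPKM without glucose, against 2.58 and 3.84 RPKM in complete medium (log2 change -1.13 ± 0.15). ATG9A, the membrane protein of early autophagosomes, was at 0.311 and 0.263 RPKM, against 1.98 and 3.31 RPKM (-1.25 ± 0.21). The higher members were GABARAPL2 and ATG3, of the conjugation machinery of autophagy, at 1.03 and 0.74. Without either glucose-free replicate the list had 0 higher and 2 lower members.

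MYC, a driver of growth and ribosome production, was at 2.75 and 2.46 RPKM without glucose, against 6.98 and 12.6 RPKM in complete medium (log2 change -1.15 ± 0.26), a call lost without either glucose-free library (limma adjusted p up to 0.11). JUN, an AP-1 subunit, was at 6.95 and 7.67 RPKM, against 5.18 and 12.015 RPKM, so the groups overlapped (0.31 ± 0.33; limma adjusted p = 0.485). EIF3D, the subunit tagged in these cells, was at 34.3 and 35.0 RPKM, against 36.5 and 50.3 RPKM (0.15 ± 0.31; limma adjusted p = 0.718), and its sign turned under several scalings. Reads of the endogenous gene and of the introduced copy cannot be told apart in these tables.

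Replication-dependent histones, which are made in S phase to package new DNA, had 1 of 40 tested members higher and 19 lower, with a median log2 change of -0.99. Of the 53 genes in the list, 51 stood in the tables under the symbols used. Their usual mRNAs finish with a stem-loop and lack a poly(A) tail, so libraries of RNA containing poly(A) hold only part of them. The stem-loop stretches of 3 lower genes are shown because they mark that ending, with the 16 bases of the searched motif GGNNCTTTTNAGNGCC in capitals. They come from GENCODE 29 transcripts (GRCh38), at chr6:26217412-26217437 (plus strand) for HIST1H2AE, chr6:26199963-26199988 (plus) for HIST1H2BF and chr1:149886183-149886208 (minus) for HIST2H2BE.
HIST1H2AE: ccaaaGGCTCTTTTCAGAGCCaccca
HIST1H2BF: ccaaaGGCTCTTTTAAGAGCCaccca
HIST2H2BE: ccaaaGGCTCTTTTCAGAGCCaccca

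The core histone genes HIST1H2AE (0.520 and 0.498 RPKM without glucose, 11.6 and 7.06 RPKM in complete medium) and HIST1H2BF (2.71 and 2.52 RPKM without glucose, 20.1 and 30.2 RPKM in complete medium) had non-overlapping groups, and HIST2H2BE had a log2 change of -2.22. The motif, read on the transcript strand, stood in 0.0305% of all annotated transcripts and in an annotated transcript of 20 of the 40 members, of which 1 was higher and 6 lower (median -0.58). Of the 20 without these letters, 0 were higher and 13 lower (median -1.33), and many of those annotated transcripts hold the coding part only. HIST3H2A was the higher member, at 0.87. The lower count was 11 without glucose-free replicate 1 and 10 without replicate 2, and it was 23 with length and GC trends removed. Whether the ending of these mRNAs, their amount or the selection of poly(A) RNA differed was not tested.

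Replication-independent histones, whose mRNAs carry poly(A) tails, had 2 of 12 members higher and 1 lower, with a median of 0.06 that turned to -0.32 as deposited. That list had 0 calls without either glucose-free replicate, 4 higher and 1 lower without complete replicate 1, and 0 higher and 3 lower without complete replicate 2. DNA replication genes had 5 of 36 higher and 2 lower, with a median of 0.04 (-0.32 as deposited, -0.02 after quantile normalization and -0.14 with upper quartile scaling). Without glucose-free replicate 1 there were 2 higher, and without replicate 2 there was 1, with 0 lower in each; without complete replicate 1 there were 5 and 7, and without complete replicate 2 there were 8 and 1. PRIM1, the small primase subunit, was at 4.16 and 4.59 RPKM without glucose, against 0.311 and 0.316 RPKM in complete medium (log2 change 2.27 ± 0.16; limma adjusted p = 4.91e-05). MCM4, a subunit of the replicative helicase, was at 3.49 and 3.80 RPKM, against 8.10 and 21.9 RPKM (-1.23 ± 0.31), a call lost without either glucose-free library (limma adjusted p up to 0.11). Mitosis genes had 3 of 26 higher and 7 lower, with a median of -0.62, and 12 lower with length and GC trends removed. PLK1, a kinase of mitotic entry, was at 2.91 and 2.88 RPKM, against 8.13 and 21.1 RPKM (-1.47 ± 0.28), and its call was lost without either glucose-free library (limma adjusted p up to 0.0567). Without either glucose-free replicate the mitosis list had 1 lower member, without complete replicate 1 it had 11, and with the inputs alone it had 3 higher and 3 lower.

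Chromatin modifiers had 0 of 24 members higher and 20 lower, with a median of -0.96. KMT2D, a histone H3 lysine methyltransferase, was at 0.297 and 0.318 RPKM without glucose, against 1.49 and 4.68 RPKM in complete medium (log2 change -1.28 ± 0.29). EP300, a histone acetyltransferase, was at 0.433 and 0.474 RPKM, against 1.75 and 5.53 RPKM (-1.27 ± 0.31). KMT2D and EP300 passed the limit of 1 RPKM only through the complete inputs, where they were high, which favours a fall. How many of the 24 members did so was not counted. The 41 genes of the list summed to only 28.7 and 29.3 RPKM in the glucose-free inputs, against 69.0 and 171 RPKM in the complete inputs. Of the 1232 members that passed only through the complete inputs, 639 were called lower. The count of falls over all nuclear protein-coding genes is therefore too low a yardstick for such members. The groups did not overlap, but the calls of both genes were lost without either glucose-free library (limma adjusted p up to 0.0922 and 0.105), and the list had 0 calls without either of these libraries and 7 lower without complete replicate 2. With length and GC trends removed, 2 members were higher and 1 lower, and the median was -0.23. Their median exon length was 12606 nt.

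Actomyosin, spectrin and cytolinker genes had 3 of 26 members higher and 11 lower, with a median of -0.89. ACTB, the cytoplasmic actin, was at 31.3 and 30.8 RPKM without glucose, against 65.9 and 256 RPKM in complete medium (log2 change -1.58 ± 0.47), so complete replicate 2 was several-fold above replicate 1, and the call was lost in 4 of the 8 fits with a library left out (limma adjusted p up to 0.16). PFN1, an actin monomer binder, was at 46.8 and 51.5 RPKM, against 193 and 175 RPKM (-1.42 ± 0.37), a call lost without either glucose-free library (limma adjusted p up to 0.13). MYL6, MYL12A and MYL12B, light chains of non-muscle myosin, were the higher members, with MYL6 at 43.3 and 41.9 RPKM, against 20.3 and 22.3 RPKM (1.42 ± 0.25). With length and GC trends removed 4 were higher and 4 lower, without either glucose-free replicate 1 was higher and 0 lower, and without complete replicate 2 there were 3 and 6.

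**Figure D2:**
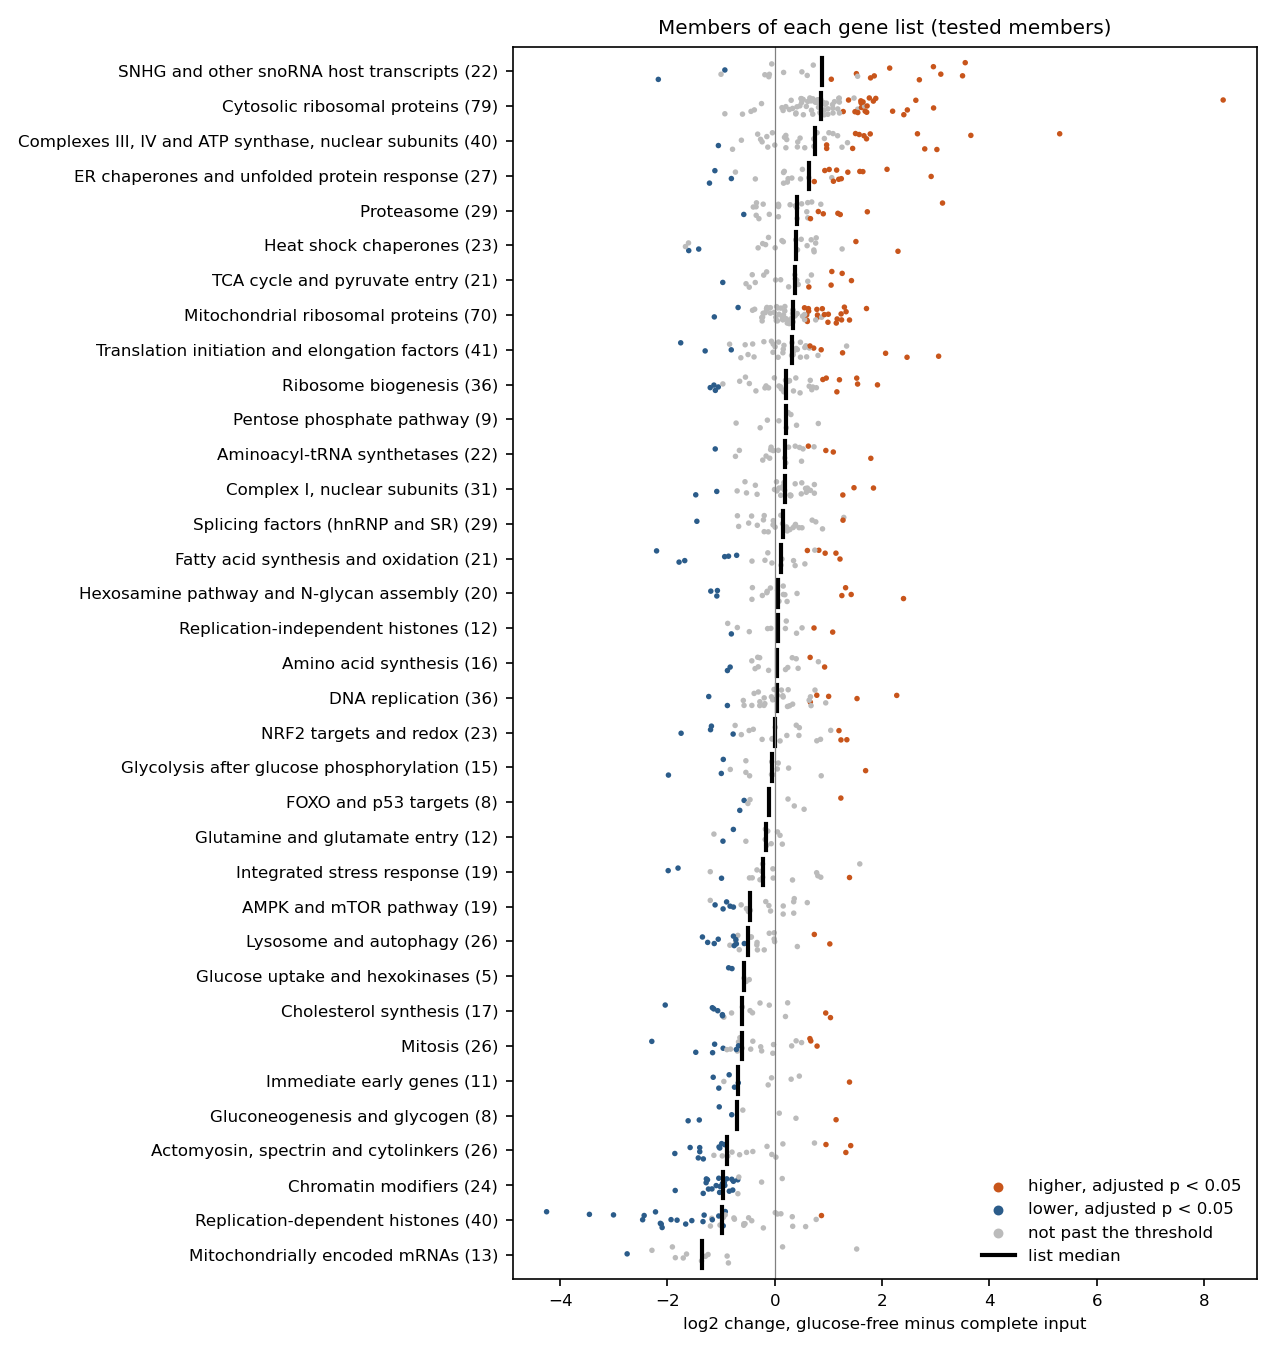
Log2 change (glucose-free minus complete input) of each tested member of the gene lists with at least 5 tested members; the number tested stands in brackets, colours mark members past the threshold and black lines the list medians. The median is 0.89 for snoRNA host transcripts and 0.86 for cytosolic ribosomal proteins at the top, and -0.99 for replication-dependent histones and -1.37 for mitochondrially encoded mRNAs at the bottom.

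The change of a gene varied with its transcript's length and base composition. Over 4682 nuclear protein-coding genes, the log2 change correlated with exon length at r = -0.262 (Spearman rho -0.290) and with transcript GC content at r = -0.320 (rho -0.315), as a description across genes that share the same 4 libraries. From the shortest to the longest quintile by exon length, the median change was 0.20, 0.04, -0.11, -0.22 and -0.47. The shortest quintile held 189 higher and 104 lower genes, and the longest quintile 38 higher and 328 lower. In the quintile with the lowest GC content (31.5% to 44.9%), 251 genes were higher and 35 lower, with a median of 0.37, while in the quintile with the highest (60.4% to 76.8%) 71 were higher and 239 lower, with a median of -0.31.

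The complete replicates differed from each other along the same axis of length. Complete replicate 2 minus replicate 1 had a median log2 difference of -0.46 in the shortest quintile and 0.32 in the longest, whereas glucose-free replicate 2 minus replicate 1 was 0.02 in both. Removing each library's length and GC trends gave 1201 higher and 843 lower genes, so 58.8% of calls were higher, of which 737 and 577 had been called in the same direction before and 6 had been called in the opposite one. The part of length, base composition and library preparation in the results above was not tested beyond this refit.

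**Figure D3:**
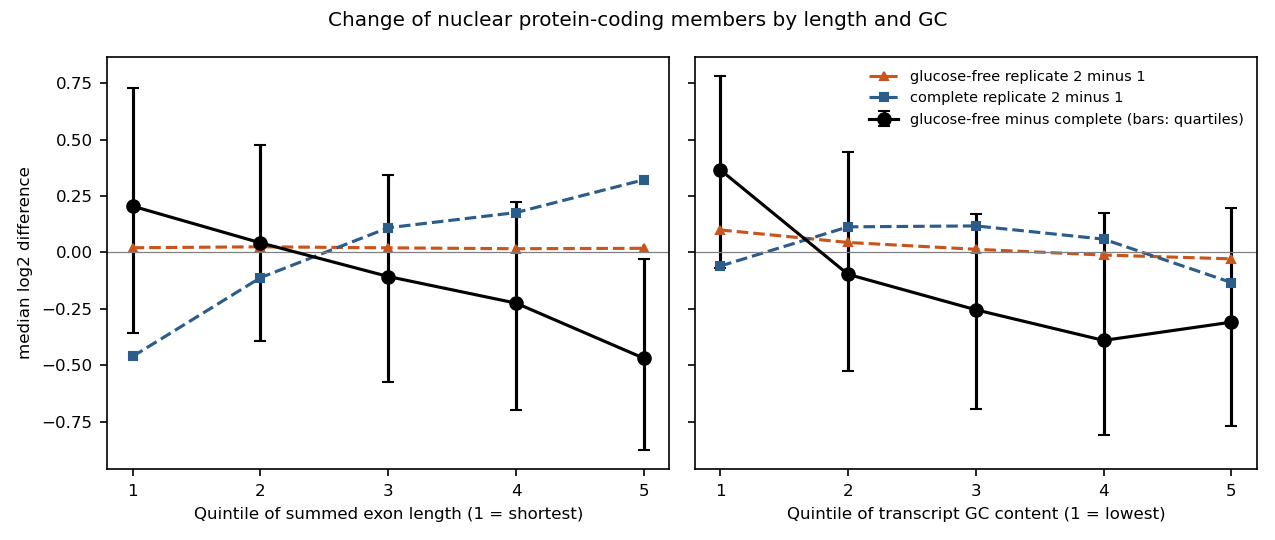
Median log2 difference of nuclear protein-coding genes in quintiles of summed exon length (left) and of transcript GC content (right). Black points with quartile bars are glucose-free minus complete input, and dashed lines are replicate 2 minus replicate 1 within each group. The medium difference is 0.20 in the shortest and -0.47 in the longest quintile, and the difference of the complete replicates is -0.46 in the shortest and 0.32 in the longest.

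Host transcripts of small nucleolar RNAs (snoRNAs) carry snoRNAs in their introns. Of the hosts with a RefSeq start, 6 began with a TOP run, as shown above for SNHG5 and ZFAS1, and 4 of these were higher and 0 lower (median 1.70). The 12 without it had 6 higher and 1 lower (median 1.06). Of all 22 tested hosts, 10 were higher and 2 lower, with a median of 0.89 that stayed above 0 under every scaling tried. SNHG8 was at 124 and 157 RPKM without glucose, against 27.3 and 8.34 RPKM in complete medium (log2 change 3.55 ± 0.60; limma adjusted p = 0.00331). SNHG5 was at 111 and 125 RPKM, against 21.7 and 7.86 RPKM (3.50 ± 0.53), and GAS5 at 103 and 119 RPKM, against 32.2 and 8.35 RPKM (3.09 ± 0.61). In all of these the complete replicates differed among themselves by more than 2-fold, with replicate 2 the lower. SNHG1 had 960 and 1530 reads without glucose, against 100 and 6 reads (2.96 ± 0.38). SNHG9 went the other way, at 5.29 and 5.56 RPKM, against 47.1 and 30.1 RPKM (-2.17 ± 0.34). Without either glucose-free replicate the list had 5 higher and 1 lower members, and without complete replicate 1 it had 14 and 1. NORAD, a long noncoding RNA without snoRNA cargo, was at 0.457 and 0.479 RPKM, against 1.41 and 1.86 RPKM (-0.62 ± 0.19), and its call was lost in 4 of the 8 fits with a library left out (limma adjusted p up to 0.21).

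Short RNAs of other kinds, most of which have no poly(A) tail, differed most between the groups. Of 268 members with exon length under 200 nt, 181 were higher and 20 lower without glucose, with a median log2 change of 2.05. All 23 genes annotated as rRNA were higher, with a median of 4.78 and their share of reads given above. Their quartiles lay close together, at 4.70 and 4.93. Copies among them may share reads, so these genes are not separate observations. The 5.8S rRNA gene RNA5-8SN3 was at 26990.4 and 25828 RPKM without glucose, against 854 and 999 RPKM. It has near-identical copies, RNA5-8SN1 and RNA5-8SN2, among which reads may be split, and both copies also rose.

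Small nuclear RNAs, the cores of the spliceosome, had 44 of 53 members higher and 0 lower. RNU5A-1, a U5 RNA, had 842 and 214 reads in the glucose-free inputs, against 1 and 0 reads in the complete inputs. RNY1, a Y RNA bound by the Ro protein, had 1245 and 836 reads without glucose, against 5 and 2 reads, and RNY4 had 397 and 176 reads, against 0 and 0 reads. Among snoRNAs 33 of 56 were higher and 5 lower, and SNORD46 had 77 and 58 reads, against 0 and 0 reads. Both glucose-free libraries were far above both complete ones for these RNAs, and per RPKM glucose-free replicate 1 was the higher of its pair for RNU5A-1, RNY1, RNY4 and SNORD46. Small Cajal body RNAs, guides for modifying snRNAs, went the other way where they passed, with 0 of 7 higher and 5 lower. SCARNA22 (chr4:1974636-1974760) was at 5.65 and 4.42 RPKM without glucose, against 339 and 344 RPKM in complete medium (log2 change -5.41 ± 0.26; limma adjusted p = 8.00e-06). Among mitochondrial tRNAs 7 of 15 were higher and 0 lower. These genes were chosen for naming after their values were seen. Whether the amount of these RNAs or their carry-over through poly(A) selection and size selection differed was not tested.

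**Figure D4:**
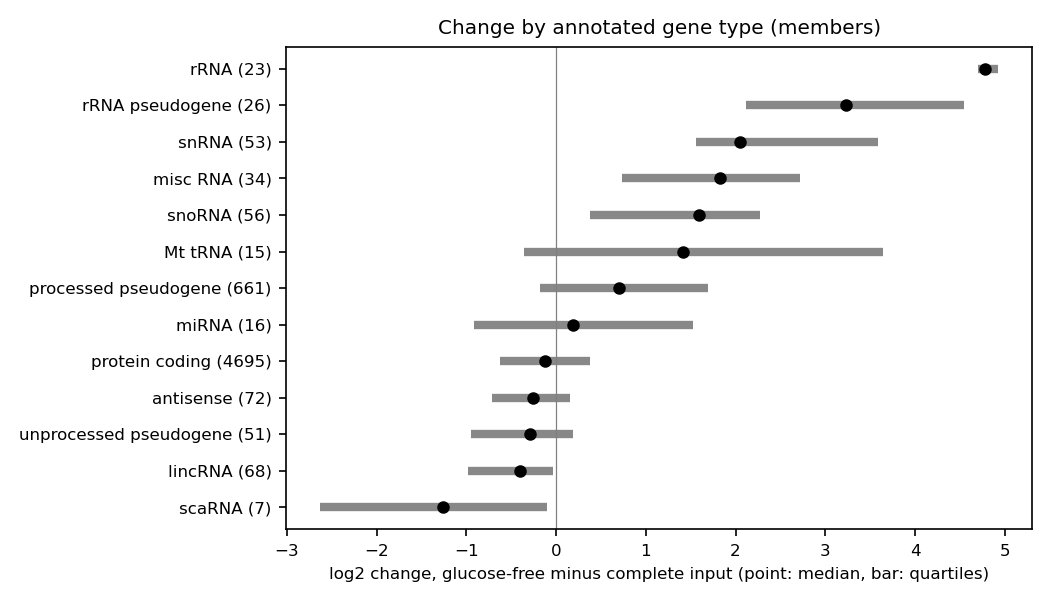
Median log2 change (point) and quartiles (bar) of members by annotated gene type, glucose-free minus complete input, with the number of members in brackets. Genes annotated as rRNA sit at 4.78 and snRNA genes at 2.05, protein-coding genes at -0.13 and small Cajal body RNAs at -1.25.

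The eIF3d immunoprecipitates (IPs), made from cells in the same media, showed a partly similar difference between media. They share no library with the inputs, but the inputs served this pull-down, so both may come from the same cells. The fit behind the input calls also drew its spread from the IPs. Counts of called genes in the IPs are therefore no independent check of those calls. Over the 5870 genes the log2 change in the inputs and the log2 difference in the IPs (glucose-free minus complete) correlated at r = 0.627 (Spearman rho 0.627), as a description across genes. Of the 1033 genes called higher in the inputs, 827 were higher in both glucose-free IPs than in both complete IPs, after scaling, and 35 lower in both. Of the 1116 called lower, 84 were higher in both and 808 lower in both. Over all members these counts were 2392 higher and 1992 lower.

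All 12 of the largest rises were higher in both glucose-free IPs, and 11 of the 12 largest falls were lower. RPL39 was at 178 and 162 RPKM in the glucose-free IPs, against 0.855 and 13.1 RPKM in the complete IPs. SEC61G was at 25.2 and 22.8 RPKM, against 0.530 and 0.256 RPKM. HIST1H1D was at 3.47 and 1.62 RPKM, against 85.4 and 92.9 RPKM. ZNF703 was the exception among the falls, at 215 and 295 RPKM in the glucose-free IPs, against 285 and 125 RPKM in the complete IPs, which overlap. Each medium had its own table, and any difference in how its libraries were prepared goes with the medium, so medium, table and preparation cannot be told apart in the inputs or in the IPs.

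**Figure D5:**
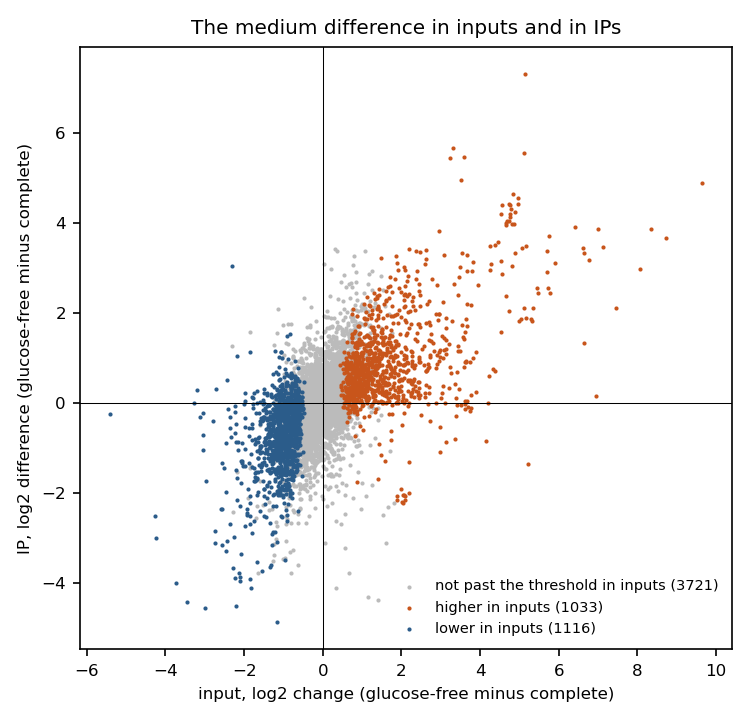
Log2 change between media in the inputs (horizontal) and log2 difference between media in the eIF3d IPs (vertical), both glucose-free minus complete, for the 5870 members; colours mark the 1033 genes higher and 1116 lower in the inputs. The differences in inputs and IPs correlated at r = 0.627, and many points lie off the diagonal.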

How the data were processed

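The authors deposited a table of RPKM for each medium. The submitters' processing notes name HISAT2, SAMtools, cutadapt and the build GRCh38; for versions, read counter, annotation and strand, the sources used here give nothing. The authors' RPKM and GENCODE 29 exon lengths turned 97.5% to 98.0% of low values into whole reads (within 0.02, up to 50 reads), which gave the read totals. Counting error only is covered by such reads.

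RPKM of each library were scaled to one median over the tested genes, and log2(scaled RPKM + 1) was fitted with limma 3.58.1 in R 4.3.3, with 4 groups of 2 libraries, the IPs included, and a trend in the prior variance. The fit was also run on simulated reads with a common spread per group and no length or GC trend. That run does not cover the length and GC trends described above. Calls needed a Benjamini-Hochberg adjusted p under 0.05 over 5870 genes; changes are glucose-free minus complete and understate low genes. An exact two-sided permutation test of 2 against 2 cannot go below p = 0.333.

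Named genes are the 12 largest rises and falls among called nuclear protein-coding genes with separate groups, up to 4 called members of each of 38 lists, and a fixed set; 1 gene so named is not reported here. Members and lists were chosen with earlier results of these data known. List descriptions carry no test. Sequences are from RefSeq and GENCODE.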

Additional observations from a re-analysis of the deposited data

How the results depend on the processing

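The counts of genes higher and lower (1033 and 1116) were within 1.5 times under voom on recovered reads (940 and 1202), quantile normalization, upper quartile scaling, a pseudocount of 0.1, no filter (1328 and 881), no trend in the prior variance, and the inputs alone (829 and 928). They moved beyond that for 737 lower genes when values were centred after the log, 574 higher with RPKM as deposited, 337 higher and 327 lower at a mean of at least 5 RPKM (2135 genes tested), and 647 lower with the inputs alone and length and GC trends removed, a setting chosen after seeing the data. With no filter, 30283 genes were tested, and only 676 of the higher and 540 of the lower calls were kept. At 5 RPKM, 337 and 253 of the same calls were found. Totals over unlike numbers of genes tested cannot be compared directly. Leaving out 1 library gave 497 to 1516 higher and 198 to 1410 lower genes. Deviations of same-numbered libraries correlated at -0.077 to 0.211, with 0.006 between the input groups and 0.211 between glucose-free inputs and glucose-free IPs. With 2 libraries a group, these values cannot show whether replicate numbers pair the samples. A replicate block gave 1011 higher and 1096 lower.

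Named genes changed sign as follows. With RPKM as deposited, EIF3D was -0.30 and JUN -0.11. EIF3D was -0.34 after quantile normalization, -0.084 with upper quartile scaling and -0.14 at 5 RPKM. Without complete replicate 1, JUN was -0.0040 and ATF4 0.20, and without complete replicate 2 they were 0.61 and -0.65. With length and GC trends removed, in all libraries or the inputs alone, MLXIP was 0.081, SLC2A1 0.026 and HK2 0.023. The cause was not tested. With 2 libraries a group, 84 of 169 named genes lost their call without glucose-free replicate 2 and 82 without replicate 1, and 397 members had fewer than 10 reads in at least 1 input.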

Other observations

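Processed pseudogenes, copies of mRNAs pasted back into the genome, made up 661 members, of which 282 were higher and 72 lower without glucose, with a median log2 change of 0.70. Their reads may come from their parent genes. Long intergenic RNAs had 5 of 68 members higher and 21 lower (median -0.40), and antisense RNAs 8 of 72 higher and 14 lower (median -0.26).

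Proteasome genes had 7 of 29 members higher and 1 lower, with a median of 0.41 (-0.05 after quantile normalization); without glucose-free replicate 1 there were 3 higher and without replicate 2 there was 1. Heat shock chaperones had 2 of 23 higher and 2 lower: HSPE1, the mitochondrial co-chaperonin, was at 7.81 and 8.72 RPKM without glucose, against 1.48 and 1.25 RPKM in complete medium (log2 change 2.30 ± 0.20), while HSPB1 was at 25.2 and 28.3 RPKM, against 125 and 104 RPKM (-1.60 ± 0.34), a call lost without either glucose-free library (limma adjusted p up to 0.0762). MT2A, a metal-binding metallothionein, was at 7.27 and 8.07 RPKM, against 43.7 and 33.3 RPKM (-1.75 ± 0.31). Ribosome biogenesis genes had 7 of 36 higher and 4 lower, translation factors 7 of 41 higher and 3 lower, aminoacyl-tRNA synthetases 4 of 22 higher and 1 lower, and splicing factors 1 of 29 in each direction. Without glucose-free replicate 1 these lists had 2, 3, 1 and 0 higher members, without replicate 2 they had 2, 4, 1 and 0, and 0 were lower in either case. Heat shock chaperones had 1 higher and 0 lower in both cases. Without complete replicate 1 there were 5 higher and 5 lower ribosome biogenesis genes, 12 and 6 translation factors, and 2 and 5 heat shock chaperones.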
